A study of Mus musculus with 16 samples.

Results

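Cdca5, Bscl2, Amt, Wdr83 and Tmem230 are 5 mouse genes on autosomes other than 1, 4 and 15 whose whole span lay under H3K36me3-enriched regions in Setd5+/- neural stem cells and under none in WT cells. They were chosen by that pattern, 100% of the gene covered in Setd5+/- cells and 0% in WT cells, so their H3K36me3 coverage is a description and not a finding. Of 13356 protein-coding genes of at least 5 kb on the 16 autosomes used, 9 met the same rule, which is 0.0674%, and the 5 genes are the longest of these 9 apart from 2 predicted genes. The 4 others were Gm52042, Gm32719, Fut11 and Llph. With genes under 5 kb counted as well, 34 genes met the rule.

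The study asked how SETD5, named in the series title as an H3K36 methyltransferase, shapes chromatin in neural stem cells. Neural stem cells came from mouse embryos at E14.5 (telencephalic cortex), were grown as neurospheres with bFGF and EGF, and were fixed on Matrigel. ChIP-seq, which sequences DNA recovered with an antibody against a chromatin protein or mark, covered H3K4me3, H3K27ac, H3K4me1, H3K27me3, H3K36me2 and H3K36me3 in Setd5+/- cells and in WT cells, and for V5-tagged SETD5 in WT cells. The 13 lists of enriched regions, called islands, hold 1 library per group, so no difference has a replicate check or a p-value. The labels give the genotype as Setd5+/- without the allele, the clone or the number of embryos, and do not say how the V5 tag was introduced. No V5 library from untagged cells was analysed here.

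H3K36me3 is laid down by SETD2 as it travels with elongating RNA polymerase II, so it normally marks the bodies of transcribed genes. H3K4me3 sits at active and poised promoters, H3K27ac at active promoters and enhancers, H3K4me1 at enhancers and promoter flanks, and H3K27me3 at genes repressed by Polycomb. The 5 genes work in unrelated processes. Cdca5 encodes sororin, which protects cohesin on replicated chromosomes. Bscl2 encodes seipin, an endoplasmic reticulum protein needed to form lipid droplets. Amt encodes the aminomethyltransferase of the mitochondrial glycine cleavage system. Wdr83 encodes a WD-repeat scaffold of the ERK cascade that is also found with the spliceosome. Tmem230 encodes a transmembrane protein of secretory and recycling vesicles.

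Promoter sequences are shown for the starts where the marks described below differ in kind: Cdca5 has H3K4me3 without H3K27ac, Bscl2 has an inner start with H3K4me3 in Setd5+/- cells only, and Amt and Tmem230 have H3K4me1 in WT cells only. Each runs 5′ to 3′ from 250 bases before to 50 bases after an annotated start, from RefSeq on GRCm38.p6. They lie at chr19:6084847-6085146 on the plus strand (Cdca5), chr19:8837217-8837516 on the plus strand (Bscl2, 5′ start), chr19:8840253-8840552 on the plus strand (Bscl2, inner start), chr9:108296655-108296954 on the plus strand (Amt) and chr2:132247739-132248038 on the minus strand (Tmem230). Capitals mark matches on either strand to GGGCGG (the GC box), CCAAT (the CCAAT box) or TTTGAA, out of 5 motifs searched.
Cdca5: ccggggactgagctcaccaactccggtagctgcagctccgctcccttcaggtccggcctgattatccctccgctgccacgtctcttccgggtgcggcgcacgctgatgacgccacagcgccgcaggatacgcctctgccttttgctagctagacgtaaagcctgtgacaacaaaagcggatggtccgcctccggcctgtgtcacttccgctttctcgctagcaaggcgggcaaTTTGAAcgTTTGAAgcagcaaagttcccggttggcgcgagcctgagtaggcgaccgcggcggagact
Bscl2 5′ start: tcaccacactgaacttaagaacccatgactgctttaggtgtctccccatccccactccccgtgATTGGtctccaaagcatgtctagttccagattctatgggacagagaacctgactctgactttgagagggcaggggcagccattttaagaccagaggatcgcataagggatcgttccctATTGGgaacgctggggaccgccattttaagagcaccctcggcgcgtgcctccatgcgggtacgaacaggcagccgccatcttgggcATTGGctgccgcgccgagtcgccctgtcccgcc
Bscl2 inner start: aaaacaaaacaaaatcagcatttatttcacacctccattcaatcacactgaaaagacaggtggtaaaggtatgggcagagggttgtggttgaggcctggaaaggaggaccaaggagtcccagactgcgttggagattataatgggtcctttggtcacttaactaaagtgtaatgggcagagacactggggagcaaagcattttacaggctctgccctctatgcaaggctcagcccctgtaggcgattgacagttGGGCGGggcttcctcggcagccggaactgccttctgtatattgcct
Amt: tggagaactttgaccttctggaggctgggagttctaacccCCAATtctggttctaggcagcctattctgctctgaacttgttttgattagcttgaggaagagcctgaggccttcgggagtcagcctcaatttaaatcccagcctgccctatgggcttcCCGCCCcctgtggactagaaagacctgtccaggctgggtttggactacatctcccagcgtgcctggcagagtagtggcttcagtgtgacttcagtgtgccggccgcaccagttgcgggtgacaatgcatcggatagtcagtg
Tmem230: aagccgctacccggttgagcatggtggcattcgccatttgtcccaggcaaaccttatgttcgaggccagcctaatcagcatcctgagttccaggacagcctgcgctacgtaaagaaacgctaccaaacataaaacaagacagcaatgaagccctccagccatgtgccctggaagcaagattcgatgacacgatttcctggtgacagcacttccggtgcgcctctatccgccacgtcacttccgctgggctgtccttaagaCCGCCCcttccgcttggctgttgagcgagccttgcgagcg

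The Cdca5 promoter held TTTGAA at 2 positions, −17 and −9 from the start, and 29 CG dinucleotides in 300 bases. TTTGAA is the letter sequence of the cell cycle genes homology region known from promoters of genes that peak in G2 and mitosis. Among 32851 RefSeq mouse promoter entries of this length 17.9% held TTTGAA, and the number of CG dinucleotides had a median of 7, a 10th percentile of 1 and a 90th percentile of 31. The 5′ start of Bscl2 held CCAAT 3 times on the minus strand and 16 CG dinucleotides, while its inner start held 1 GGGCGG and 5 CG dinucleotides. Amt held CCAAT and GGGCGG at 1 position each with 7 CG dinucleotides, and Tmem230 held 1 GGGCGG with 19. The Wdr83 start held CCAAT at 1 position and 9 CG dinucleotides. CCAAT was found in 37.4% of all entries and GGGCGG in 35.7%. TATAAA, found in 13.6%, and CACGTG, found in 7.15%, matched none of these windows. A match is a description of letters and not a site of binding.

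Libraries were compared through their islands only, because depth outside them is unknown. Reads in islands of the whole lists, all chromosomes included, ranged from 1019278 to 5093126 per library. For H3K36me3 they came to 3561439 in Setd5+/- cells and 2468530 in WT cells. On the 16 autosomes used, H3K36me3 islands held 2532573 reads in Setd5+/- cells and 1986887 in WT cells. In islands shared 1 to 1 on the 16 autosomes, H3K36me3 reads per kb were 1.37-fold higher in the Setd5+/- library at the median of 4285 pairs. H3K36me3 covered 148.2 Mb there in Setd5+/- cells and 151.9 Mb in WT cells. The Setd5 gene itself was covered over 73.3% of its span in Setd5+/- cells and 98.5% in WT cells, which does not check the genotype, since islands measure neither the allele nor the transcript. H3K4me3 lay at the start of 10 of 11 neural stem cell markers with a promoter entry in both genotypes, Pax6 lacking it. It lay at 3 of 7 neuronal marker starts in both, none of them with H3K27ac. At the starts of astrocyte and oligodendrocyte markers H3K4me3 was found for 0 of 3 in Setd5+/- cells and 1 of 3 in WT cells. For microglia and blood the counts were 1 of 6 in Setd5+/- cells and 0 of 6 in WT cells, and for endothelium and mesenchyme 1 of 2 in Setd5+/- cells and 2 of 2 in WT cells. The part of other cells in the values below was not tested.

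**Figure D1:**
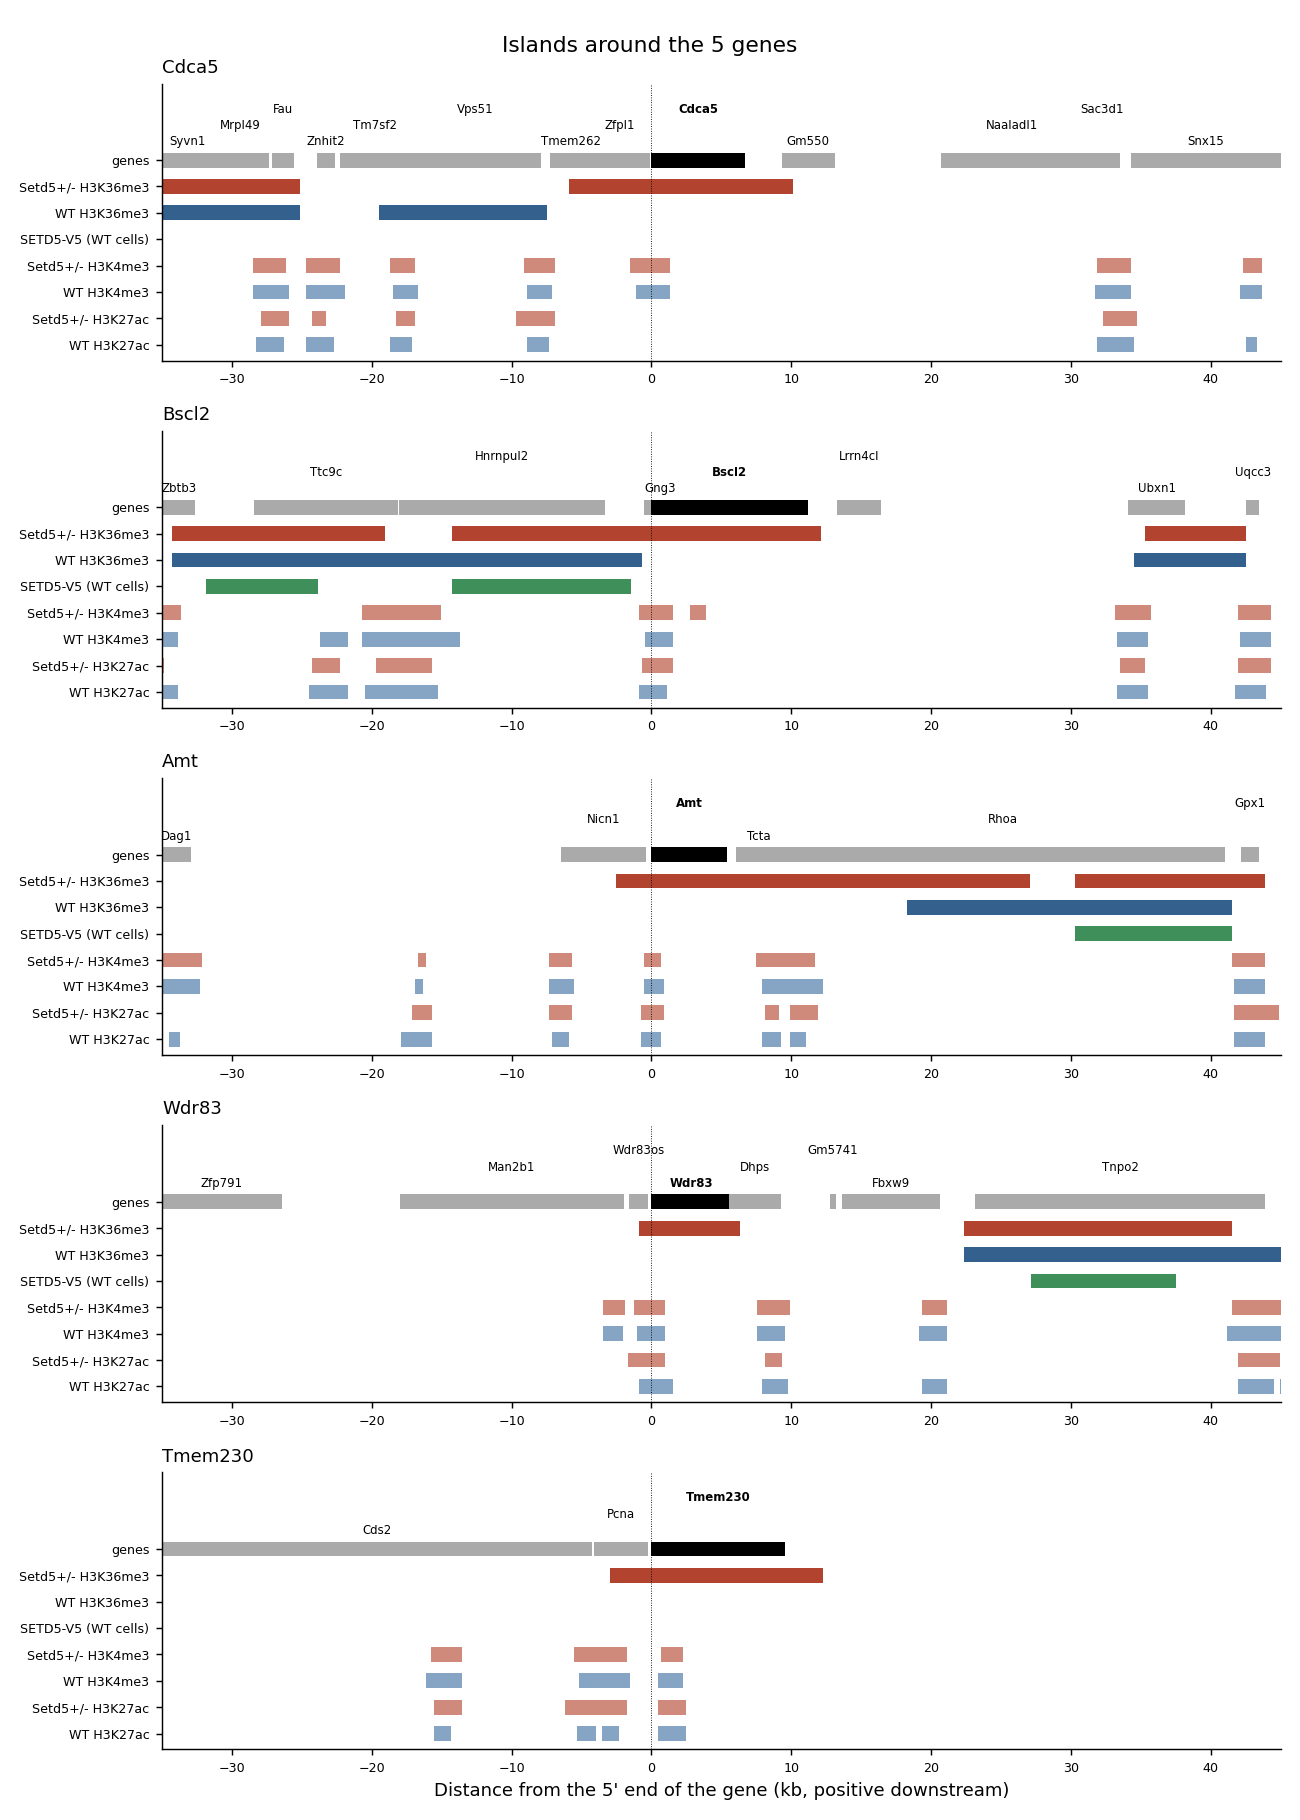
Islands of H3K36me3, SETD5-V5, H3K4me3 and H3K27ac around the 5 genes, with distance in kb from the annotated 5′ end of the gene on the x axis and 1 row per library, Setd5+/- (red) above WT (blue) for each mark and SETD5-V5 in green; black bars are the 5 genes and grey bars other genes. The Setd5+/- H3K36me3 row runs across each gene, and the WT H3K36me3 row is empty over it.

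The islands that covered the genes differed widely in size and in reads. In bulk chromatin, the mark in more cells and more of the mark per cell cannot be told apart. The counts of reads are taken to be the authors' own, from a column that has no name, and the intervals given are exact 95% Poisson intervals. These reflect counting error alone and treat each read as independent. Amplified reads with no molecular barcode may be copies of 1 molecule, so the intervals may be too narrow. The widest was the island over Amt with 29.6 kb and 384 reads (347 to 424), and the narrowest was that over Wdr83 with 7.2 kb and 98 reads (79.6 to 119). The densest was over Bscl2 with 537 reads (493 to 584) in 26.4 kb, or 20.3 reads per kb. The other 4 had at most 14.7 reads per kb, against a median of 16.1 over all 7396 Setd5+/- islands of these autosomes. In density the Bscl2 island stood above 89.9% of those islands, the Amt island above 7.06% and the Cdca5 island above 7.86%. Each count is a total for the whole island, so the reads over the gene itself are not known.

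Each gene filled a different share of its island. Wdr83 was framed most closely: its island began 0.854 kb before the 5′ end and ended 0.634 kb past the 3′ end. The Tmem230 island of 15.2 kb and 224 reads (196 to 255) reached 2.941 kb upstream and 2.691 kb downstream of the gene. The Cdca5 island of 16 kb and 209 reads (182 to 239) began 5.896 kb upstream and ended 3.427 kb past the gene. The islands over Bscl2 and Amt were extended mainly in 1 direction, 14.266 kb upstream of Bscl2 and 21.698 kb past the end of Amt.

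**Figure D2:**
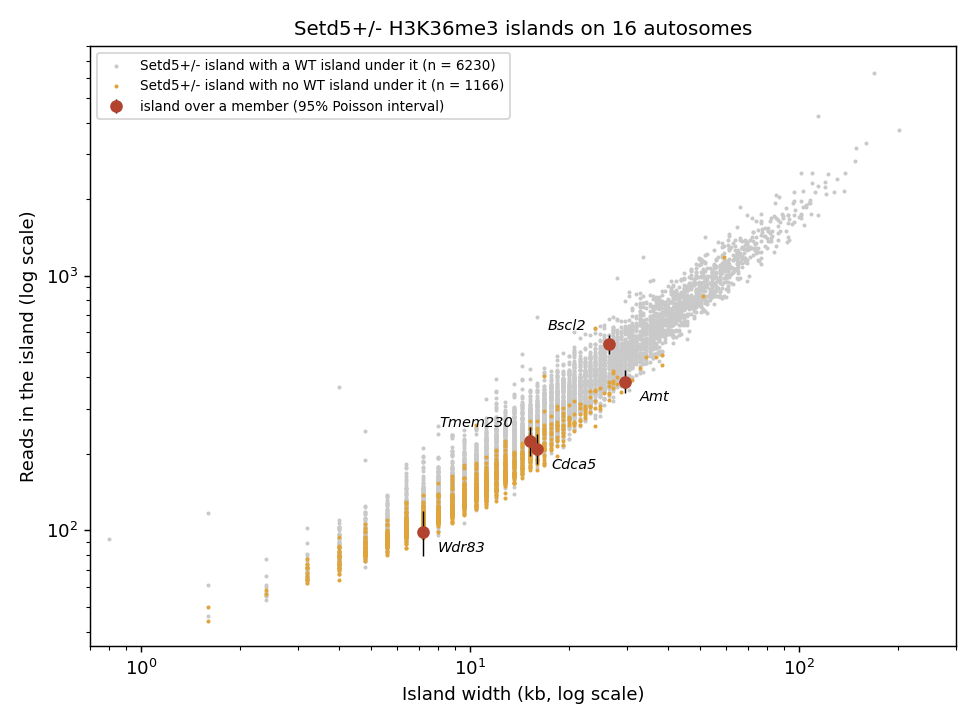
Reads in each Setd5+/- H3K36me3 island (y axis, log scale) against its width in kb (x axis, log scale) on 16 autosomes. Grey points are the 6230 islands with a WT island under them, orange points the 1166 without, and red points with 95% Poisson intervals those over the 5 genes; Bscl2 lies high for its width and Wdr83 and Amt low.

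Whether a WT island lay under the same Setd5+/- island split the genes. For Cdca5, Wdr83 and Tmem230 no WT island touched any base of it. Such islands made up 15.8% of the Setd5+/- list, 1166 of 7396, and had a median of 136 reads and 9.6 kb, against 267 reads and 16.8 kb for the 6230 Setd5+/- islands with a WT island under them. For Bscl2 and Amt a WT island lay under another stretch of the same Setd5+/- island. The WT island next to Bscl2, 33.6 kb wide with 487 reads, ended 0.666 kb before the 5′ end and covered all of Hnrnpul2, a gene for an RNA-binding protein. The WT island next to Amt, 23.2 kb with 278 reads, began 12.898 kb past its end, over Rhoa, the gene of a small GTPase that controls the actin cytoskeleton.

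Nearby WT H3K36me3 was measured by the distance to the closest WT island, in the library that also chose the genes. The share of all genes with a WT island within 10 kb was not counted, so the count here is a description only. Of the 5 genes, 2 had one within 10 kb: Bscl2, and Cdca5 with an island 7.496 kb upstream. That island, 12.0 kb with 114 reads (94.0 to 137) or 9.5 reads per kb, covered Vps51, which encodes a subunit of vesicle-tethering complexes at the Golgi and endosomes. Vps51 had no H3K36me3 island in Setd5+/- cells, 0% against 100% in WT cells, and 1600 bp separated its WT island from the Setd5+/- island over Cdca5. The closest WT island lay 16.634 kb downstream of Wdr83 and 44.541 kb upstream of Tmem230, which made Tmem230 the gene farthest from any WT H3K36me3.

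Because the Setd5+/- library is denser, the reads of each Setd5+/- island were also scaled down by the 1.37-fold ratio and set beside WT islands of the same width within 800 bp. The Wdr83 island came to 71.3 scaled reads (57.9 to 86.9), and WT islands of that width had at least 67 and a median of 89 reads, with 5 of 554, or 0.903%, below the scaled value. Amt came to 280 scaled reads (252 to 309), against at least 238 and a median of 358 in 191 WT islands of its width, 14 of which, or 7.33%, had fewer. The interval of Wdr83 spans the fewest reads that the WT list holds at its width, and that of Amt lies above it. Cdca5 with 152 and Tmem230 with 163 scaled reads stood above 22.2% and 45.8% of WT islands of their widths. Bscl2, with 391 scaled reads, stood above 90.6% of them. These ranks are of whole islands, and the islands of Bscl2 and Amt overlap WT islands outside the gene. How many of their reads lie on the gene is not known.

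The call changed for 2 genes under other settings. Wdr83 lost its coverage when the 25% of islands with fewest reads, up to 149 in Setd5+/- cells and up to 124 in WT cells, were left out of each list. Bscl2 no longer had 0% WT coverage when WT islands were lengthened by 2400 bp on each side, the gap that the island caller bridges. Cdca5, Amt and Tmem230 met the rule under both settings, an outcome fixed by their values. Their Setd5+/- islands had 209, 384 and 224 reads, above the 149. Their closest WT islands lay 7.496, 12.898 and 44.541 kb from the gene, beyond the 2400 bp. Both settings use the same values that chose the genes, so meeting the rule under them is a description and not support.

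The rule itself lay on sharp edges. Llph, with 5024 bp, was the shortest gene kept, and Zc3h10, with 4449 bp, was the longest left out for its length. Gdpd3, a phosphodiesterase gene, was covered over 95.2% in Setd5+/- cells and 0% in WT cells and was left out, as was Rpl37rt with 100% in Setd5+/- cells and 3.80% in WT cells. The opposite pattern, 0% in Setd5+/- cells and 100% in WT cells, held for 14 genes of at least 5 kb, or 0.105%. Of 88 genes covered whole in Setd5+/- cells 10.2% had no coverage in WT cells, and of 412 covered whole in WT cells 3.40% had none in Setd5+/- cells.

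Several neighbouring genes lay under the same Setd5+/- islands. Zfpl1, which encodes a Golgi zinc-finger protein, was covered over 100% in Setd5+/- cells and 0% in WT cells beside Cdca5, and Tmem262 over 54.5% in Setd5+/- cells and 0% in WT cells. Gng3, a G-protein gamma subunit gene of neurons that overlaps Bscl2, was covered over 100% in Setd5+/- cells and 0% in WT cells. Tcta, next to Amt, was likewise covered over 100% in Setd5+/- cells and 0% in WT cells. Zfpl1, Gng3 and Tcta are 3 of the 25 genes under 5 kb that met the rule, so 3 of the 5 islands cover more than 1 such gene.

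Pcna, which encodes the sliding clamp of DNA polymerases and lies 226 bp from Tmem230, was covered over 69.7% in Setd5+/- cells and 0% in WT cells. Beside Wdr83, Wdr83os was covered over 46.3% in Setd5+/- cells and 0% in WT cells, and Dhps, the deoxyhypusine synthase gene, over 20.7% in Setd5+/- cells and 0% in WT cells. Nicn1, upstream of Amt, had 34.6% in Setd5+/- cells and 0% in WT cells. Gm550, past the end of Cdca5, had 20.5% in Setd5+/- cells and 0% in WT cells. Rhoa had 89.9% in Setd5+/- cells and 71.6% in WT cells. Hnrnpul2 ran the other way, with 74.2% in Setd5+/- cells and 100% in WT cells, and Slc23a2, downstream of Tmem230, had 34.5% in Setd5+/- cells and 46.9% in WT cells. Lrrn4cl, past the end of Bscl2, and Gm5741, past the end of Wdr83, had 0% in both genotypes.

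All 5 genes lay within 1 kb of another protein-coding gene, against 40.6% of the 2619 genes of their length range, 5398 to 11217 bp. Not every gene that met the rule did so. Fut11 and Gm52042 also lay within 1 kb of another gene, but Llph lay 2150 bp and Gm32719 65400 bp from the nearest. Within 25 kb of the gene there were 8 other genes for Cdca5, 6 for Wdr83, 5 for Bscl2, 3 for Amt and 2 for Tmem230. The length range had a median of 2, a 10th percentile of 0 and a 90th percentile of 5. The starts of Cdca5 and Zfpl1 were 122 bp apart on opposite strands, and those of Wdr83 and Wdr83os 217 bp apart on opposite strands. Islands carry no strand, so H3K36me3 and promoter reads there cannot be assigned to either gene of the pair. The same limit holds at the 5′ start of Bscl2, which lies within Gng3 on the opposite strand, their starts 1779 bp apart.

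SETD5-V5 islands touched 0 of the 5 genes, against 27.2% of all 13356 genes and 2.66% of the 7520 genes with 0% WT H3K36me3. The closest SETD5-V5 island lay 1.466 kb upstream of Bscl2, 12.8 kb wide with 319 reads, over Hnrnpul2. It lay 21.434 kb downstream of Wdr83, 24.898 kb downstream of Amt, 44.541 kb upstream of Tmem230 and 177.1 kb upstream of Cdca5. The SETD5-V5 library comes from WT cells, where these genes have no H3K36me3 island, and no SETD5-V5 library of Setd5+/- cells was analysed here. Among all genes of the members' length range, SETD5-V5 touched 1 of 7 genes with 100% coverage in Setd5+/- and 0% in WT cells, the 1 being the predicted gene Gm32719. These 7 are the 5 genes with Gm32719 and Gm52042, so the count contains the 0 of 5 given above. SETD5-V5 touched 0 of 12 with the opposite pattern, 33 of 45 with at least 90% in both genotypes, and 28 of 1736 with 0% in both.

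**Figure D3:**
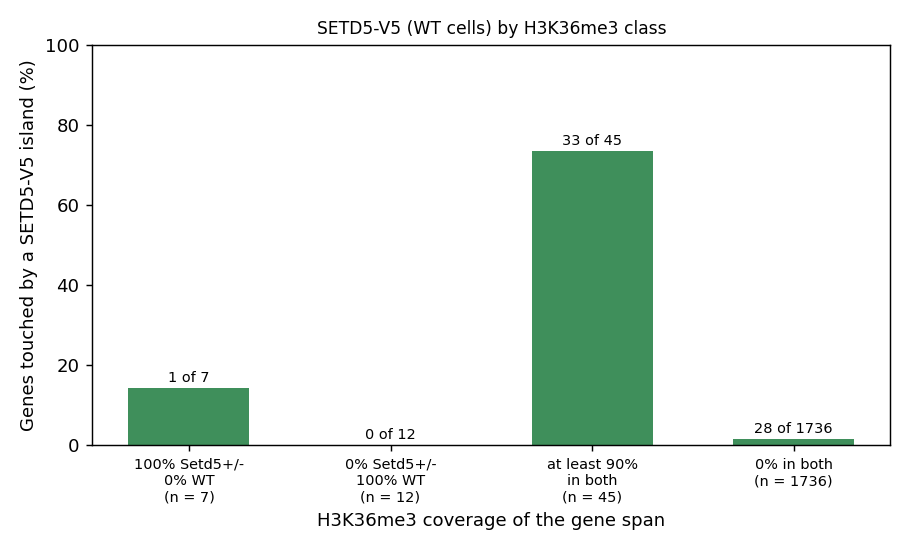
Share of genes of 5398 to 11217 bp touched by a SETD5-V5 island in WT cells (y axis, percent), by H3K36me3 coverage in Setd5+/- and WT cells (x axis), with the number touched of the number of genes above each bar. The share is 73.3% for genes covered in both genotypes and 14.3%, 1 of 7, for those covered in Setd5+/- cells only. These last are the 5 genes described here with Gm32719 and Gm52042.

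H3K4me3 lay within 1 kb of an annotated start of all 5 genes in Setd5+/- cells and of all 5 in WT cells, against 69.2% of 10714 genes with a promoter entry in Setd5+/- cells and 71% in WT cells. At Cdca5 the island had 476 reads in 2.8 kb in Setd5+/- cells and 397 reads in 2.4 kb in WT cells. Wdr83 had the most H3K4me3, 487 reads in 2.2 kb in Setd5+/- cells and 494 in 2.0 kb in WT cells, at a start 217 bp from that of Wdr83os. Amt had the least, 143 reads in 1.2 kb in Setd5+/- cells and 136 in 1.4 kb in WT cells. H3K4me3 was present at each promoter in the genotype without the H3K36me3 island too.

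H3K4me3 density at the 5′ start of Bscl2 was 108 reads per kb in Setd5+/- cells and 92.0 in WT cells, and at Tmem230 it was 167 reads per kb in Setd5+/- cells and 151 in WT cells. Relative to the median of 15583 shared H3K4me3 islands, log2 density ratios of Setd5+/- over WT ran from −0.23 at Wdr83 to 0.22 at Amt, with Cdca5 at −0.03, Tmem230 at 0.08 and Bscl2 at 0.16. All 5 lay between the 10th and 90th percentiles of the shared islands.

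Bscl2 had a second H3K4me3 island in Setd5+/- cells only. It spanned 2.734 to 3.933 kb past the 5′ end and covered the inner start, 3036 bp into the gene, with 64 reads (49.3 to 81.7) in 1.2 kb. No WT H3K4me3 island touched the inner start, and the WT reads there are not known. The weakest island of the WT H3K4me3 list, at any width, had 14 reads, which is not a limit for this stretch. Setd5+/- H3K4me3 islands without a WT island under them numbered 2203 of 18297, or 12.0%, with a median of 35 reads, and 93.5% of them had fewer reads than the island at the inner start of Bscl2.

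H3K27ac lay at the starts of 4 of the 5 genes in Setd5+/- cells and the same 4 in WT cells, Bscl2, Amt, Wdr83 and Tmem230, against 42.5% of genes in Setd5+/- cells and 46.3% in WT cells. Cdca5 had no H3K27ac island within 5 kb of its start in either genotype. At Bscl2 the island had 43 reads (31.1 to 57.9) or 19.5 reads per kb in Setd5+/- cells. In WT cells it had 72 reads (56.3 to 90.7) or 36 reads per kb, and the intervals of the reads overlap at their edges. H3K27ac density in the Setd5+/- library was lower at the median of 8369 shared islands, by a log2 ratio of −0.42, and Bscl2 lay at −0.46 relative to that median, lower than all but 7.46% of shared islands. Tmem230 had 58 reads in Setd5+/- cells and 57 in WT cells, each in 2.0 kb, which is 0.45 above the median on the log2 scale and higher than 91.1% of shared islands. Amt, with 21.9 reads per kb in Setd5+/- cells and 32.1 in WT cells, and Wdr83, with 24.6 in Setd5+/- cells and 26.7 in WT cells, lay between the 10th and 90th percentiles.

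H3K4me1 lay at 1 of the 5 starts in Setd5+/- cells, Bscl2, and at 3 in WT cells, Bscl2, Amt and Tmem230, against 16.8% of genes in Setd5+/- cells and 42.7% in WT cells. The whole H3K4me1 list was shorter in Setd5+/- cells, with 24243 islands in Setd5+/- and 35464 in WT cells, and its part in this difference was not tested. The WT islands had 49 reads in 2.0 kb at Amt and 79 reads in 3.2 kb at Tmem230, and neither start had an H3K4me1 island within 1 kb in Setd5+/- cells. At Bscl2 the island had 31 reads (21.1 to 44.0) in Setd5+/- cells and 40 reads (28.6 to 54.5) in WT cells, intervals that overlap.

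H3K27me3 lay at 0 of the 5 starts in Setd5+/- cells and 0 of 5 in WT cells, against 5.15% of genes in Setd5+/- cells and 7.06% in WT cells. H3K36me2 touched 0 of the 5 genes in Setd5+/- cells and 0 of 5 in WT cells, against 3.22% of genes in Setd5+/- cells and 6.03% in WT cells. No H3K27me3 island touched any base of the 5 genes in either genotype.

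**Figure D4:**
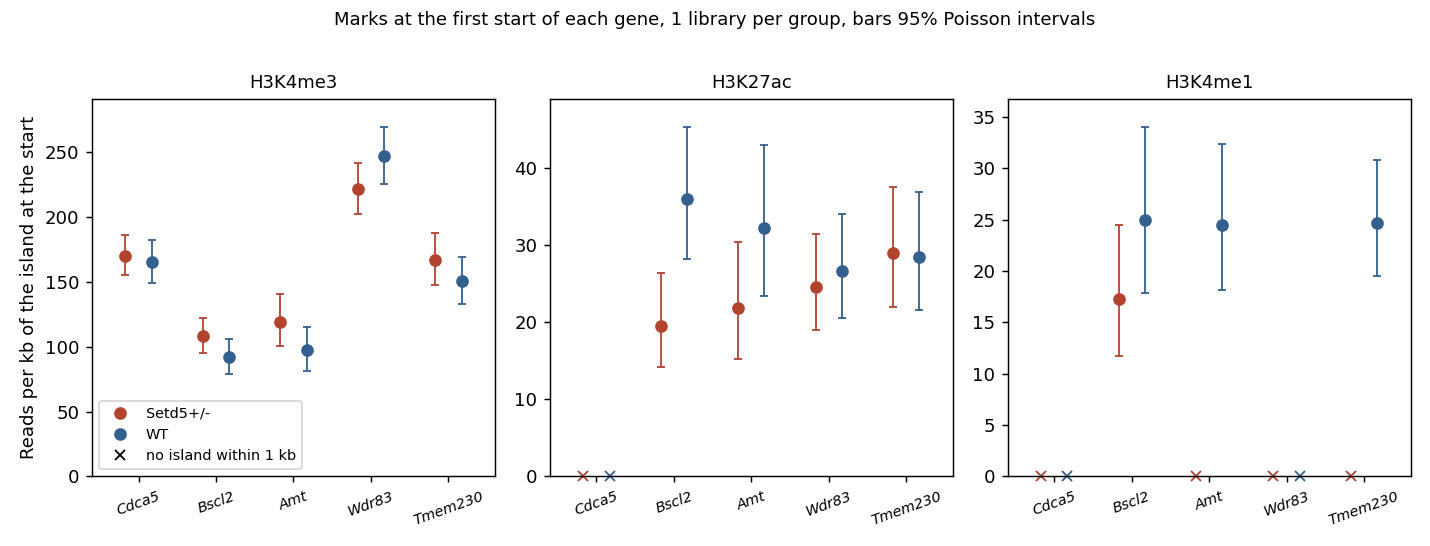
Reads per kb (y axis) of the H3K4me3, H3K27ac and H3K4me1 island at the first listed start of each gene (x axis), Setd5+/- in red left of WT in blue, 1 library each, with 95% Poisson intervals and crosses where no island lay within 1 kb. H3K4me3 stands at all 5 starts in both genotypes, Cdca5 has no H3K27ac, and Amt and Tmem230 have H3K4me1 in WT cells only.

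The 4 other genes of at least 5 kb that met the rule varied in the same features. Llph had an island of 8.0 kb and 108 reads with no WT island under it, and 3.847 kb separated the gene from a WT island. Fut11, a fucosyltransferase gene, lay under an island of 25.6 kb and 560 reads that also covered Sec24c, a COPII coat gene with 95.5% in Setd5+/- cells and 89.5% in WT cells. Its WT neighbour ended 0.567 kb upstream, much as at Bscl2. Gm52042 lies within Mrs2, the gene of a mitochondrial magnesium channel, which was covered over 94.0% in Setd5+/- cells and 51.1% in WT cells. Gm32719 was the 1 of the 9 genes touched by SETD5-V5, under an island of 92.0 kb and 1756 reads. H3K4me3 lay at the starts of Llph, Fut11 and Gm52042 in both genotypes and not at Gm32719.

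Of other genes in the pathways of the 5 genes, 0 of the 82 list genes tested met the rule, which at 0.0674% of all genes says nothing particular about the lists. In each list, differences of at least 25 percentage points of H3K36me3 coverage were counted, which over all 13356 genes were higher in Setd5+/- cells for 4.48% and lower for 5.3%. Genes at 0% in WT cells cannot go lower, and among the 5836 genes above 0% in WT cells 4.59% were higher and 12.1% lower, with a median difference of −2.64 points. Of 14 sister chromatid cohesion genes tested, 0 were higher and 3 lower. The 13 of them above 0% in WT cells had a median difference of −3.51 points. Aurkb, the mitotic kinase of the chromosomal passenger complex, had 47.4% in Setd5+/- cells and 100% in WT cells, and Mau2, a cohesin loader subunit, had 45.4% in Setd5+/- cells and 82.2% in WT cells. Esco1, a cohesin acetyltransferase, had 17.8% in Setd5+/- cells and 48.5% in WT cells. Among 14 lipid droplet and triglyceride genes 0 were higher and 0 lower, and only 3 of them were above 0% in WT cells. Gpat4, an acyltransferase of triglyceride synthesis, had the largest difference of that list, 47.3% in Setd5+/- cells and 62.4% in WT cells.

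Of 18 glycine cleavage and folate genes 2 were higher and 2 lower, and the 15 above 0% in WT cells had a median difference of 0. Gcsh, the lipoate carrier protein that works with AMT, had 0% in Setd5+/- cells and 96.2% in WT cells. Aldh1l2, the mitochondrial formyltetrahydrofolate dehydrogenase, had 86.8% in Setd5+/- cells and 35.4% in WT cells, while its cytosolic counterpart Aldh1l1 had 0% in Setd5+/- cells and 38.0% in WT cells. Of 18 ERK and spliceosome partners of WDR83, 2 were higher and 0 lower, and the 17 above 0% in WT cells had a median difference of 0. Mapk3, which encodes a kinase of the cascade, had 68.1% in Setd5+/- cells and 0% in WT cells. Eftud2, a spliceosomal GTPase gene, had 95.8% in Setd5+/- cells and 73.2% in WT cells, a difference under 25 points.

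Of 18 endosome and retromer genes 0 were higher and 5 lower, and the 17 above 0% in WT cells had a median difference of −7.86 points. Vps51, described above near Cdca5, had the largest difference. Snx2, a sorting nexin, had 23.5% in Setd5+/- cells and 70.1% in WT cells, and Vps52, a partner of VPS51, had 0% in Setd5+/- cells and 41.2% in WT cells. The lists were counted and not tested.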

How the data were processed

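Per the submitters' processing notes, FastQC, Bowtie2 2.2.3 and SICER 1.1 were used with GRCm38 (mm10). The deposited files list islands, each with a whole number taken to be the authors' raw count of reads; the column has no name, and its range is the only evidence. SICER settings for SETD5-V5, H3K36me3 and H3K36me2 were windows of 800 bp, gaps of 2400 bp and an FDR of 0.01, per the file headers. Settings of the 8 remaining lists, whose islands step by 200 bp, were not given in those headers. Use of the inputs as controls is not given in the sources used here, and the 3 inputs are not analysed here.

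Coverage is the percent of a RefSeq GRCm38.p6 gene span under islands. Starts and strands came from the RefSeq promoter table, which had entries for 10714 of 13356 genes tested, and marks were sought within 1 kb. Density ratios used islands shared 1 to 1. Counts over genes above 0% in WT cells were added after the values were seen. The members and lists were chosen with earlier results of these data known. Named genes are those that meet the rule, their neighbours, the genes at its edges, and up to 3 genes per list with the largest coverage difference. Not every gene that this gives is printed, and 1 is not reported here. Python 3.11.15 with numpy 2.4.6, pandas 2.3.3, scipy 1.17.1 and matplotlib 3.10.9 was used, and coverage was tested on simulated islands. Alternatives varied gene length, thresholds, weak islands, covered length, island edges and windows.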

Additional observations from a re-analysis of the deposited data

How the results depend on the processing

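Of 32 alternatives, 22 left a count equal or within 1.5 times. Some of the alternatives could not change the call of the 5 genes. Looser thresholds and lengths only add genes, and equal covered length removed WT islands alone. The read-depth setting, chosen after the data were seen, follows from the scaled reads given above. Other alternatives also had a fixed outcome. SETD5-V5 and H3K27me3 counts of 0 could not rise with a stricter overlap, and H3K4me3 at all 5 starts could not change within 5 kb. The 22 is therefore not a measure of robustness. The number of genes covered over 100% in Setd5+/- and 0% in WT cells, 9, was 34 with genes of any length and 22 at thresholds of at least 90% and at most 10%. It was 10 without the 25% of islands with fewest reads and 6 with WT islands lengthened by 2400 bp. The number with the opposite pattern, 14, was 64 with genes of any length, 29 at the looser thresholds, 49 without the 25% of islands with fewest reads, and 7 with Setd5+/- islands lengthened by 2400 bp. With 5 kb added on each side, SETD5-V5 touched 1 of the 5 genes, Bscl2. H3K4me1 lay within 5 kb of 2 starts in Setd5+/- cells. A WT H3K36me3 island lay within 5 kb of 1 gene and within 25 kb of 4, and the shares of all genes at these distances were not counted. The cause was not tested. No paired analysis was possible because each group has 1 library and the labels give no replicate numbers. Island calls at 98 to 209 reads carry wide counting error, and genes without an island may hold the mark below the caller's limit.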

Other observations

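At Vps51 and Cdca5, and at the neighbours Chchd1 and Fut11, nearby genes showed opposite differences in H3K36me3 coverage. Tmem262 and Zfpl1 lie between Vps51 and Cdca5 and were higher in Setd5+/- cells, as Cdca5 was. Chchd1, which encodes a mitochondrial ribosomal protein and lies downstream of Fut11, had 0% in Setd5+/- cells and 87.6% in WT cells, while Fut11 had 100% in Setd5+/- cells and 0% in WT cells. Hmga2, a chromatin architectural gene downstream of Llph, was covered over 29.2% in Setd5+/- cells and 0% in WT cells, while Tmbim4, upstream of Llph, had 69.7% in Setd5+/- cells and 84.6% in WT cells. These pairs were picked after their values were seen and were not tested.

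The 25 genes under 5 kb that met the rule include Gpx1, the glutathione peroxidase gene, under an island of 240 reads, and Taf10, a TFIID subunit gene, under an island of 198 reads. They include Psenen, a gamma-secretase subunit gene, under an island of 440 reads, and Npm3, a nucleoplasmin gene, under an island of 748 reads. Alkbh7 and Pspn lay under the same island of 242 reads.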
